A study of Mus musculus with 12 samples.

Results

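Liver RNA from mice given exosomes of human adipose mesenchymal stem cells (hADMSCs-Exo) was compared with that of mice given saline during recovery from carbon tetrachloride. The comparison took the 3 libraries labelled hADMSCs-Exo and the 3 labelled REG, 6 of the 12 samples of the series, and covered every gene of the table. Male C57BL/6J mice, 6 weeks old on arrival, all received carbon tetrachloride (CCl4), a solvent that injures hepatocytes, at 1 mL/kg into the peritoneum 2 times per week for 8 weeks. The REG group was then given 200 µL of phosphate-buffered saline into a tail vein, and the hADMSCs-Exo group 250 µg of exosomes in the same volume, on 2 occasions a week over 4 weeks. Exosomes are small membrane vesicles that cells release, and here they came from human cells while the recipients were mice with an intact immune system. The remaining samples were the fibrosis group LFG, taken without a recovery treatment, and the hADMSCs group, which was not analysed here. The labels number the livers 1 to 3 in each group but do not say how animals were assigned. The p-values weigh the difference between the groups against the spread between livers within them, and speak for these samples only.

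Hepatocytes make up most of the liver's RNA. They detoxify with cytochrome P450 enzymes and conjugating transferases, build cholesterol and fatty acids under the transcription factors of the SREBP family, respire in mitochondria, and pass bile acids, drugs and metals through carriers of the SLC and ABC families. Their programme is set by nuclear receptors and hepatocyte transcription factors, follows the circadian clock, and differs between cells near the central vein and near the portal vein. CCl4 itself is activated by a P450 enzyme of the pericentral cells, which links this programme to the injury model.

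Total counts ranged from 16457357 to 19840917 over the 6 libraries, with 14539 to 14698 genes detected, and Pearson correlations of log2 CPM between any 2 libraries lay between 0.955 and 0.981. CPM is the usual unit of counts scaled to the size of each library, here after TMM normalization. Values below are CPM, given in the order of replicates 1, 2 and 3, and a log2 fold change is that of hADMSCs-Exo over REG, with its standard error from edgeR. Albumin, the most abundant transcript, took 8.41 to 10.8% of the counts in hADMSCs-Exo and 12.2 to 13.6% in REG. Some libraries stood apart from their group. The first principal component (30.1% of the variance) set hADMSCs-Exo 1 at -46.8 against -7.42 to 28.4 for the others, and the second (25.9%) set REG 1 at 40.4 against -23.4 to 12.3. Genes of interferon-responsive, red cell and neutrophil lists had their highest or near highest levels in REG 1, and sinusoidal endothelial genes were high in REG 1 and hADMSCs-Exo 2.

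Few genes separated treated from saline livers beyond the spread between replicates. Of 12337 genes with enough counts, 1 passed both limits, a log2 fold change of 1 or more in size and an adjusted p under 0.05, by edgeR's quasi-likelihood test, 0.00811% of those tested, and it was the P450 gene Cyp2c55, lower after exosomes. The next smallest adjusted p was 0.131, and 6 genes lay under 0.2. At an unadjusted p under 0.05, which calls nothing but describes the size of the differences, stood 1237 genes (10.0% of those tested), 659 higher (5.34%) and 578 lower (4.69%). With the fold change limit as well, 266 genes remained (2.16%), 122 higher (0.989%) and 144 lower (1.17%). This split rested on single libraries: without hADMSCs-Exo 2 it was 129 higher and 314 lower, and without REG 1 it was 277 higher and 130 lower. The groups did not overlap in 1946 genes (15.8%), 981 higher (7.95%) and 965 lower (7.82%). The median log2 fold change of all tested genes was 0.01, with quartiles of -0.19 and 0.22. Other tools called more: DESeq2 called 68 genes, 34 in each direction, and edgeR's exact test 64, of which 53 were shared. Among the 68 genes of DESeq2, 16 belonged to the lists of hepatocyte metabolism, transport, signalling and nuclear regulators described below and 15 to those of matrix and myofibroblast genes. These were 1.08% of 1477 and 19.0% of 79 genes that DESeq2 tested in those lists, beside 0.501% of all 13568.

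**Figure D1:**
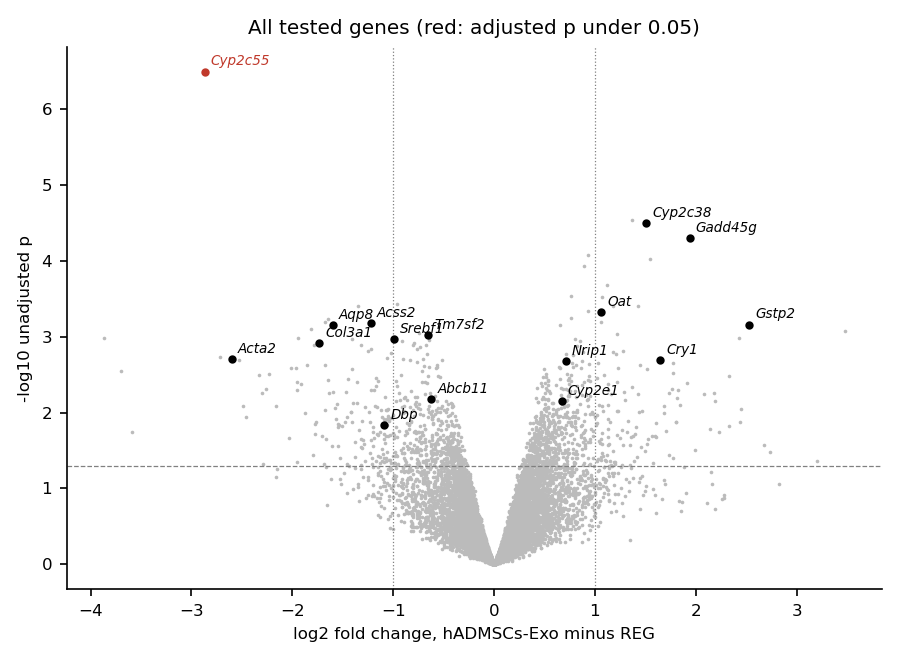
Each point is 1 of the 12337 tested genes, with the log2 fold change of hADMSCs-Exo over REG on the horizontal axis and -log10 of the unadjusted p of edgeR's test on the vertical axis. The dotted lines mark an absolute log2 fold change of 1, the dashed line an unadjusted p of 0.05, and Cyp2c55, in red, at -2.87, is the only gene past the adjusted threshold.

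Cyp2c55 fell in every treated liver. The gene encodes a P450 of the Cyp2c family that oxidises arachidonic and linoleic acids, and it lies at chr19:39007019-39042693 (GRCm38, plus strand). It stood at 21.5, 22.3 and 20.7 CPM in REG and 3.595, 2.39 and 2.82 CPM in hADMSCs-Exo. The groups were far apart and each was tight, with REG between 20.7 and 22.3 CPM, and the log2 fold change of -2.87 ± 0.19 (adjusted p = 0.00401) corresponds to a level 7.31 times higher in saline livers. With 1 library left out at a time Cyp2c55 ranged from -3.05 to -2.74 in log2 fold change, yet its adjusted p reached 0.0815 without hADMSCs-Exo 3 and to 0.0584 without REG 2. Only 0.5% of the 50-base windows of its transcripts also occur in a transcript of another gene. In the LFG livers, scaled over 9 libraries, Cyp2c55 stood at 28.1, 34.3 and 8.57 CPM.

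Its relative Cyp2c38 lay on the other side. Cyp2c38, a P450 that also oxidises arachidonic acid, stood at 50.1, 36.2 and 46.2 CPM in hADMSCs-Exo and 18.4, 13.8 and 14.3 CPM in REG. All 3 treated livers lay above all 3 saline livers (log2 fold change 1.51 ± 0.18, adjusted p = 0.131), and the adjusted p ranged from 9.25e-09 to 1 over the alternatives (lowest with DESeq2). Another 7.4% of its windows are shared, mostly with Cyp2c39. Cyp2c29, an abundant member induced through the receptor CAR, ran with Cyp2c55 at 580.0, 1127 and 1074 CPM in hADMSCs-Exo and 1612, 2019.5 and 1515 CPM in REG (log2 fold change -0.89 ± 0.26, adjusted p = 0.407). Cyp2c40, Cyp2c68 and Cyp2c69 were also lower at an unadjusted p under 0.05, and of these Cyp2c40 and Cyp2c69 owed much of their REG mean to REG 1, at 40.9 and 16.4 CPM.

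Over the whole P450 list, 5 of 63 tested genes were higher at an unadjusted p under 0.05 and 6 lower, against 5.34% and 4.69% of all genes, and the median log2 fold change was -0.16. The higher ones were Cyp2c38, Cyp2e1, Cyp4f17, Cyp4a32 and Cyp2c67. Cyp2e1, the pericentral enzyme that activates CCl4, stood at 6165, 8045 and 8685 CPM in hADMSCs-Exo and 4426, 4935 and 5038 CPM in REG, with no overlap between the groups (log2 fold change 0.67 ± 0.19, adjusted p = 0.407). Cyp1a2, which oxidises aromatic amines and caffeine, stood at 807, 787 and 892 CPM in hADMSCs-Exo and 675, 993 and 801 CPM in REG, with overlapping groups. Cyp3a11, an abundant drug oxidising P450, overlapped too, with a log2 fold change of -0.16 ± 0.16. Cyp2b10, the classical target of CAR, varied mainly within hADMSCs-Exo, from 2.11 to 26.3 CPM in hADMSCs-Exo and from 9.06 to 11.4 in REG. Cyp4a14, a PPAR-alpha target, was at 163, 55.5 and 89.1 CPM in hADMSCs-Exo and 326, 158 and 69.3 CPM in REG, with overlapping groups.

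**Figure D2:**
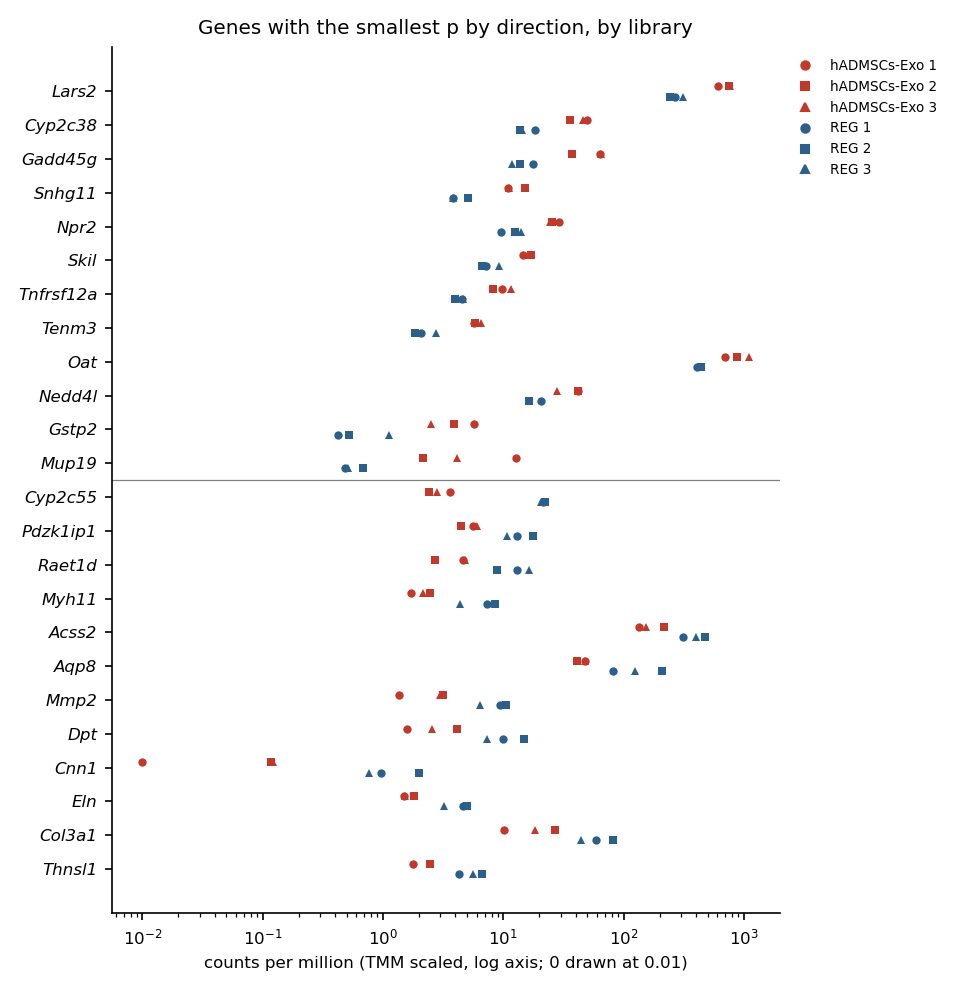
CPM on a log axis for the 12 higher and the 12 lower genes with the smallest unadjusted p among those with log2 fold changes of 1 or more in size and groups that do not overlap, red for hADMSCs-Exo and blue for REG, with 1 symbol per replicate. Cyp2c55 sits between 2.39 and 3.595 CPM in the treated libraries and between 20.7 and 22.3 in REG, and Cnn1, at 0 counts in hADMSCs-Exo 1, is drawn at 0.01.

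Conjugating enzymes lay on both sides. Of 55 tested, 5 were higher (Gstp2, Gstp1, Ugt2b34, Ugt2b35 and Sult5a1) and 9 lower at an unadjusted p under 0.05, beside 5.34% and 4.69% of all genes. Their median log2 fold change was -0.04. Gstp1 and Gstp2 share sequence, so they are not separate members of that count. Gstp1, the pi-class glutathione transferase, stood at 1093, 748 and 794 CPM in hADMSCs-Exo and 423, 543 and 462 CPM in REG, every treated liver above every saline one (log2 fold change 0.88 ± 0.19, adjusted p = 0.358). Its neighbour Gstp2 was at 5.76, 3.91 and 2.51 CPM in hADMSCs-Exo and 0.426, 0.524 and 1.13 CPM in REG. The difference of Gstp2 (log2 fold change 2.53 ± 0.48, adjusted p = 0.358) cannot be read apart from that of Gstp1, since 54.3% of its 50-base windows occur in Gstp1 transcripts or another gene's. Gstm7, a mu-class transferase, was lower at 65.3, 49.8 and 46.1 CPM in hADMSCs-Exo and 83.9, 106 and 90.95 CPM in REG (log2 fold change -0.80 ± 0.17, adjusted p = 0.358), and Gstm2, Gstm3 and Gstm6 of the same class lay on its side. Gstm1, the abundant member, did not (0.24 ± 0.21), nor did the phenol sulfotransferase Sult1a1 (0.07 ± 0.18) or the bilirubin transferase Ugt1a1 (0.06 ± 0.27).

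Among alcohol, aldehyde and retinoid enzymes, 0 of 56 were higher and 6 lower at an unadjusted p under 0.05, 10.7% of the list beside 10.0% of all genes, and the genes with the smallest p handle retinal and carotenoids. Rdh11, which reduces retinal to retinol, stood at 79.3, 119 and 85.2 CPM in REG and 39.3, 57.7 and 45.9 CPM in hADMSCs-Exo. No library overlapped, and the level was about 1 log2 unit lower (log2 fold change -0.99 ± 0.20, adjusted p = 0.358). Bco2 and Bco1, the enzymes that cleave carotenoids off centre and at the centre, had log2 fold changes of -0.64 ± 0.15 and -0.58 ± 0.18, again without overlap. Retsat and Akr1b3 were also among the 6. Adh1 and Aldh2, which carry ethanol oxidation, overlapped between the groups (-0.03 ± 0.17 and -0.05 ± 0.14).

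Cholesterol synthesis was the metabolic list with the largest share of genes at an unadjusted p under 0.05 (48.3%). Of 29 tested genes of the sterol pathway and its control, 13 were lower at an unadjusted p under 0.05 and 1 was higher, against 4.69% and 5.34% of all tested genes, and 24 of 29 had a log2 fold change below 0. The median was -0.41, from -0.52 to -0.32 over the alternatives, with none of the genes past the adjusted threshold by edgeR. Tm7sf2, a sterol reductase near the end of the pathway, stood at 190.0, 229 and 204 CPM in REG and 127, 137 and 135 CPM in hADMSCs-Exo. The separation was clean, with the highest treated liver at 137 CPM and the lowest saline one above it by more than the whole spread of the treated group (log2 fold change -0.65 ± 0.13, adjusted p = 0.358). Idi1, the isomerase that makes dimethylallyl diphosphate, was at 126, 131 and 116 CPM in REG and 85.4, 84.5 and 90.5 CPM in hADMSCs-Exo (log2 fold change -0.52 ± 0.12, adjusted p = 0.358). Nsdhl, which removes a carboxyl group during demethylation, was at 143, 126 and 118 CPM in REG and 90.6, 79.1 and 94.6 CPM in hADMSCs-Exo (log2 fold change -0.55 ± 0.13, adjusted p = 0.38). Sqle, the squalene epoxidase, stood at 167, 187 and 175 CPM in REG and 119, 132 and 158 CPM in hADMSCs-Exo (log2 fold change -0.37 ± 0.15, adjusted p = 0.463).

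Not every gene of the list shared the pattern, since 5 of 29 had log2 fold changes above 0. Srebf2, the transcription factor that drives the pathway, was at 77.3, 79.5 and 85.9 CPM in hADMSCs-Exo and 80.2, 76.5 and 71.7 CPM in REG and did not separate (0.09 ± 0.11). The 1 gene higher at an unadjusted p under 0.05 was Insig2, which holds the SREBP complex in the endoplasmic reticulum, at 86.5, 113 and 70.3 CPM in hADMSCs-Exo and 49.03, 64.2 and 40.6 CPM in REG (log2 fold change 0.81 ± 0.22, adjusted p = 0.402). Genes named here and below only to spell out counts of 5 or fewer, such as Insig2, were picked after their values had been seen.

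The promoters of the 3 sterol genes with the smallest p are shown because all 3 genes were lower in every treated liver. They are the 150 bases before the RefSeq start site on GRCm38.p6, 5′ to 3′ on the strand of the gene, with the CCAAT box, bound by NF-Y and found in many sterol gene promoters, in capitals on whichever strand it reads (ATTGG is its complement). Tm7sf2 lies on the minus strand at chr19:6067851-6068000, Idi1 on the plus strand at chr13:8885456-8885605 and Nsdhl on the plus strand at chrX:72918371-72918520.
Tm7sf2: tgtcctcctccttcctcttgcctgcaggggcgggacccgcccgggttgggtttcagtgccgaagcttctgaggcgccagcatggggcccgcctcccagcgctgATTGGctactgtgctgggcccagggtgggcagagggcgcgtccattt
Idi1: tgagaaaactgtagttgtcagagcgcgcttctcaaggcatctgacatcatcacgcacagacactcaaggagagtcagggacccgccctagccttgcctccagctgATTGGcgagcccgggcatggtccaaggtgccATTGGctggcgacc
Nsdhl: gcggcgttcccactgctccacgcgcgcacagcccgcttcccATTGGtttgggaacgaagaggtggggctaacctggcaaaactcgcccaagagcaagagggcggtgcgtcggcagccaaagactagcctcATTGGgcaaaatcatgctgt
Tm7sf2 holds 1 copy, Idi1 2 and Nsdhl 2. In the 250 bases before the start, CCAAT on either strand was found for 19 of the 21 tested members of the list that have an entry, while 33.8% of all 32851 promoters of the same length hold it. The share was above that in other lists too, at 60.6% for lipogenesis, 43.1% for the respiratory genes and 65.2% for the clock genes with an entry, whatever the sign of their medians. The core of the sterol regulatory element, searched as TCACNCCAC on both strands, was found for 1 of the 21 (Hmgcs1) and in 1.05% of all promoters, and the E-box CACGTG for 5 of the 21 and in 6.02%. Other tested members, among them Fdps, Fdft1, Sqle and Stard4, had no entry, so fewer than 80% of the list could be searched and these shares do not stand for the whole list.

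Fatty acid synthesis genes were also more often lower than higher, with more spread between libraries. Of 41 tested lipogenic and lipid droplet genes, 12 were lower at an unadjusted p under 0.05 and 4 higher. That is 39.0% of the list beside 10.0% of all genes. The median log2 fold change was -0.30. As a list, hADMSCs-Exo 2, with a median deviation of 0.13, lay above REG 1 at -0.06 and REG 2 at 0.02. Summed CPM overlapped between the groups for this list, with 13167 in hADMSCs-Exo 2 and 12139 in REG 1, and for the sterol list, with 5018 in hADMSCs-Exo 3 and 4948 in REG 1. The averaged deviations of the sterol list did not overlap, at -0.38, -0.12 and 0.01 in hADMSCs-Exo and 0.08, 0.31 and 0.1 in REG. Acss2, which makes acetyl-CoA from acetate in the cytosol, stood at 310.2, 472 and 402 CPM in REG and 134, 219 and 155 CPM in hADMSCs-Exo. Every treated liver lay below every saline liver (log2 fold change -1.22 ± 0.23, adjusted p = 0.358), and the adjusted p ranged from 0.000336 to 1 over the alternatives. Srebf1, the transcription factor that drives the lipogenic genes, was at 325, 478 and 542 CPM in REG and 208, 234 and 237 CPM in hADMSCs-Exo (log2 fold change -0.99 ± 0.20, adjusted p = 0.358). Acaca, the acetyl-CoA carboxylase, followed without overlap (log2 fold change -0.86 ± 0.24, adjusted p = 0.407).

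Fasn and Scd1, the fatty acid synthase and the main desaturase, varied widely within the groups. Fasn stood at 589.6, 735 and 1524 CPM in REG and 331, 634 and 375 CPM in hADMSCs-Exo, and Scd1 at 3763, 8029 and 10624 CPM in REG and 3885, 3899 and 1365 CPM in hADMSCs-Exo. In both, REG 1 lay within the treated range, and the log2 fold changes were -1.09 ± 0.39 and -1.29 ± 0.47. The 4 higher genes were Plin4 and Plin5, which coat lipid droplets, the phosphatidate phosphatase Lpin2, and the elongase Elovl3, whose log2 fold change of 2.23 ± 0.76 rested on levels of 3.20 to 10.5 CPM in hADMSCs-Exo and 0.122 to 2.46 CPM in REG.

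**Figure D3:**
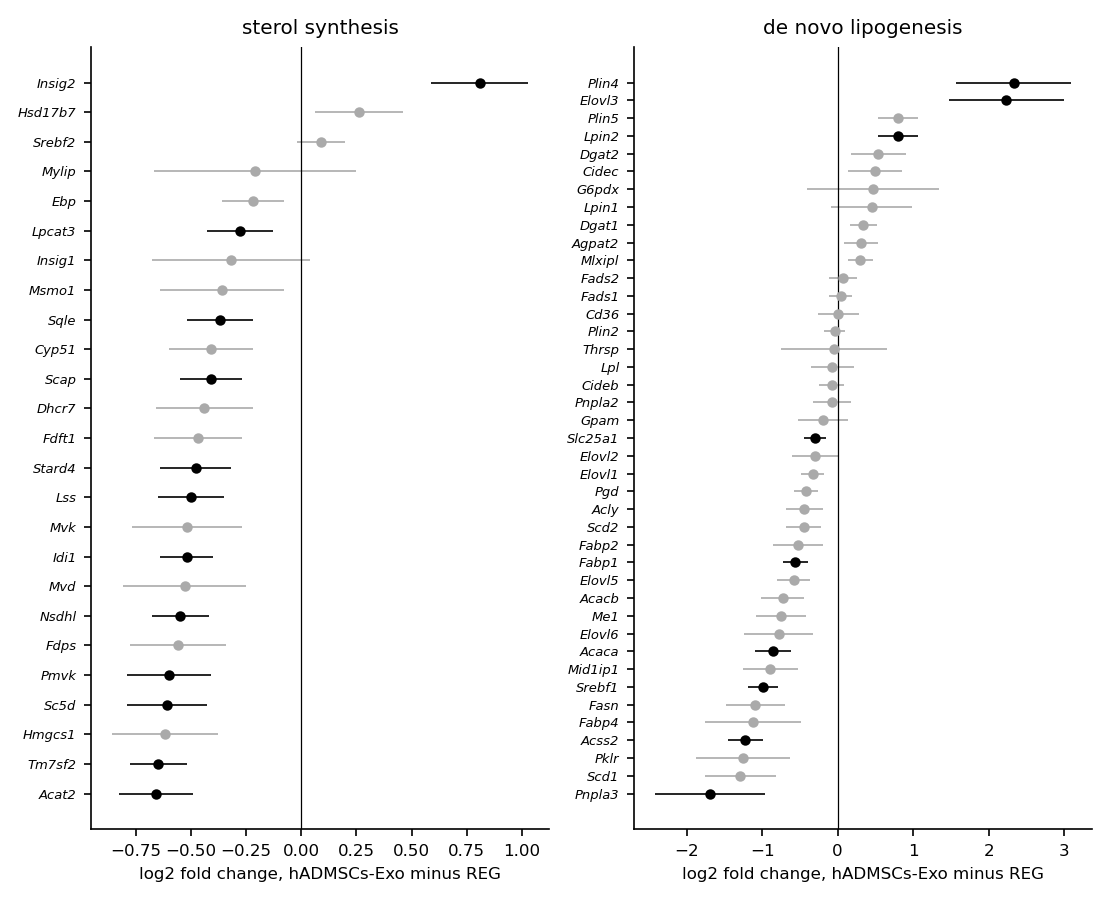
Log2 fold change of hADMSCs-Exo over REG with its standard error for 25 of the 29 tested genes of the sterol list (left; the other 4 are counted in the text but not reported by name, and their groups overlap) and the 41 of the lipogenesis list (right), black where the groups do not overlap and grey where they do. Sterol genes run from Acat2 at -0.66 to Insig2 at 0.81, and the lipogenic genes spread wider, from Pnpla3 at -1.69 to Plin4 at 2.33.

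Most nuclear genes of the respiratory chain were slightly lower in the treated group, though not in every library. Of 77 tested subunits of oxidative phosphorylation, 73 had a log2 fold change below 0, 11 were lower and 0 higher at an unadjusted p under 0.05, and 23 separated the groups downward against 1 upward. Over all tested genes 4.69% were lower and 5.34% higher at that p, and 7.82% and 7.95% separated the groups. Averaged over these genes, the deviation from the mean of the libraries was -0.14, -0.21 and 0.02 in hADMSCs-Exo and 0.04, 0.25 and 0.02 in REG. So hADMSCs-Exo 3 equalled REG 3, and the difference lay mainly in hADMSCs-Exo 1 and 2 and REG 2. The differences were small, with a median of -0.23 and a smallest p of 0.0144 before adjustment. Ndufb8 of complex I stood at 44.8, 39.8 and 37.95 CPM in REG and 28.8, 29.4 and 33.6 CPM in hADMSCs-Exo (log2 fold change -0.42 ± 0.13, adjusted p = 0.411). Uqcrc2 of complex III was tight in both groups, at 201, 205 and 213 CPM in REG and 158, 162 and 164 CPM in hADMSCs-Exo (log2 fold change -0.35 ± 0.12, adjusted p = 0.413). Atp5b, the catalytic subunit of ATP synthase, was at 1383, 1370.1 and 1318 CPM in REG and 1058, 1087 and 1134 CPM in hADMSCs-Exo (log2 fold change -0.31 ± 0.14, adjusted p = 0.497), whereas Cox4i1 of complex IV overlapped (-0.04 ± 0.16). Cytosolic ribosomal protein genes had a median of -0.06, which was 0.08 without hADMSCs-Exo 2 and REG 2, with 0 of 74 at an unadjusted p under 0.05.

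Gene length went with the level in single libraries, and its values are set beside such small shifts. With the tested genes cut by length into 5 equal classes, the shortest class (255 to 2520 exonic bases) had a median log2 fold change of -0.08 and the longest class (7615 to 123179) one of 0.10. The libraries behind this were hADMSCs-Exo 2, whose median deviation from the average library went from -0.15 in the shortest to 0.17 in the longest class, and REG 2, which went from 0.11 to -0.10. With both left out the medians of the 5 classes lay between 0.00 and 0.02. The respiratory genes have a median exonic length of 1756 bases. After subtracting the median of all genes of the same length class their median was -0.18, and 71 of 77 lay below it. Without hADMSCs-Exo 2 and REG 2 their median was -0.13 with 59 of 77 lower, and that of the sterol genes -0.32 with 25 of 29 lower. The part of gene length in these differences was not tested.

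**Figure D4:**
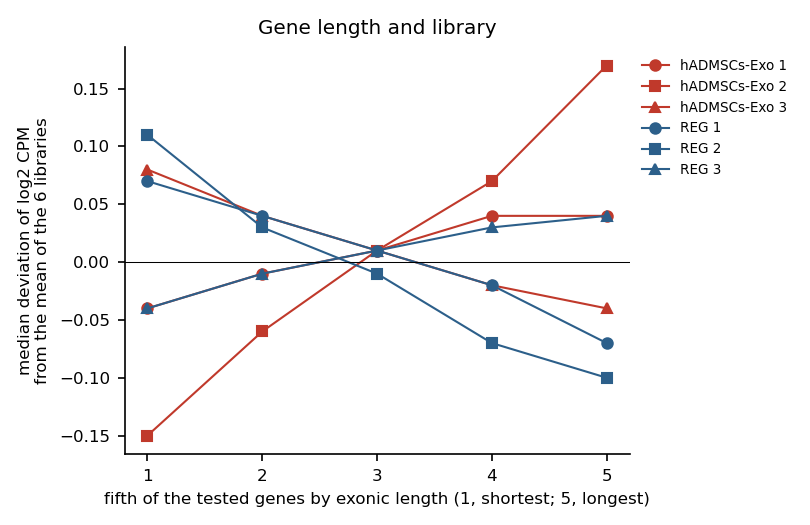
Median deviation in log2 CPM from the average of all 6 libraries, for the tested genes split into 5 equal groups by exonic length from the shortest (1) to the longest (5), with 1 line per library. The lines of hADMSCs-Exo 2, from -0.15 to 0.17, and REG 2, from 0.11 to -0.10, run in opposite directions, while the other 4 stay between -0.07 and 0.08.

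Other fuel pathways had medians near 0. In fatty acid oxidation 8 of 52 were higher and 2 lower (Ehhadh and Acsl5) at an unadjusted p under 0.05, beside 5.34% and 4.69% of all genes, with a median of 0.04. The groups did not overlap in 17 of the 52 (32.7%, beside 15.8% of all genes), 8 higher and 9 lower. Pdk4, the kinase that shuts off pyruvate dehydrogenase, stood at 3.94, 4.91 and 3.06 CPM in hADMSCs-Exo and 1.82, 2.36 and 2.21 CPM in REG (log2 fold change 0.89 ± 0.28, adjusted p = 0.409), and Fitm1, which partitions triglyceride into droplets, at 1.37, 1.34 and 1.29 CPM in hADMSCs-Exo and 0.182, 0.577 and 0.411 CPM in REG (log2 fold change 1.74 ± 0.47, adjusted p = 0.394). Ehhadh, a peroxisomal oxidation enzyme and PPAR-alpha target, pointed the other way (log2 fold change -0.53 ± 0.17, adjusted p = 0.409), while Cpt1a (0.40 ± 0.19) and Ppara itself (0.29 ± 0.36) had overlapping groups. In glucose metabolism 1 of 47 was higher, Pfkfb2, which makes fructose 2,6-bisphosphate (0.85 ± 0.24), and 3 were lower, among them Pygl and Gckr. Pygl, the liver glycogen phosphorylase, stood at 348, 451 and 622 CPM in REG and 239.8, 332 and 244 CPM in hADMSCs-Exo (log2 fold change -0.80 ± 0.24, adjusted p = 0.407). Pck1 and G6pc of gluconeogenesis, markers of fasting, spanned wide ranges within groups, with G6pc from 28.0 to 198 CPM in hADMSCs-Exo and from 31.4 to 245 CPM in REG.

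Amino acid metabolism held the metabolic gene with the smallest p on the higher side after Cyp2c38. Oat, the ornithine aminotransferase of pericentral hepatocytes, stood at 695, 876 and 1109 CPM in hADMSCs-Exo and 406, 440.3 and 437 CPM in REG. REG was tight and all treated livers lay above it (log2 fold change 1.06 ± 0.19, adjusted p = 0.358), with adjusted p from 0.000247 to 1 over the alternatives. Glul, the pericentral glutamine synthetase, was at 722, 1089 and 1289.6 CPM in hADMSCs-Exo and 603, 691 and 734 CPM in REG, with hADMSCs-Exo 1 inside the REG range (log2 fold change 0.61 ± 0.22, adjusted p = 0.445). These were the 2 of 66 genes higher at an unadjusted p under 0.05, and 8 were lower, 15.2% of the list beside 10.0% of all genes, with Haao of tryptophan breakdown (-0.55 ± 0.17) and Amt of glycine cleavage (-0.53 ± 0.15) leading. Of 31 pericentral genes, 5 were higher (Ahr, Oat, Cyp2e1, the glutamate carrier Slc1a2 and Glul) and 2 lower (Wnt9b and Dkk3). The Wnt targets Axin2 and Lgr5 overlapped (0.06 ± 0.53 and 0.05 ± 0.22). Ahr, the receptor for dioxins and other aromatic ligands, stood at 51.99, 60.6 and 75.5 CPM in hADMSCs-Exo and 36.4, 30.2 and 31.7 CPM in REG, without overlap (log2 fold change 0.93 ± 0.17, adjusted p = 0.358).

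Phosphatidylcholine and choline genes included 5 of 36 higher at an unadjusted p under 0.05 (Chka, Gde1, Chpt1, Slc44a3 and Selenoi) and 2 lower (Pcyt1b and Pnpla7). Together these were 19.4% of the list. Chka, the kinase that commits choline to phosphatidylcholine, stood at 28.5, 30.8 and 28.4 CPM in hADMSCs-Exo and 17.5, 20.8 and 15.6 CPM in REG, with all treated livers above REG (log2 fold change 0.71 ± 0.15, adjusted p = 0.358). Chpt1, which joins phosphocholine to diacylglycerol, was at 139, 174 and 156 CPM in hADMSCs-Exo and 82.5, 122 and 116 CPM in REG (log2 fold change 0.55 ± 0.18, adjusted p = 0.411), and Gde1, a glycerophosphodiesterase, at 112, 70.3 and 78.6 CPM in hADMSCs-Exo and 51.5, 49.5 and 58.3 CPM in REG (log2 fold change 0.71 ± 0.19, adjusted p = 0.394). Pcyt1b, the minor isoform of the enzyme that makes CDP-choline, was near the floor, at 0.228, 0.350 and 0.123 CPM against 1.16, 0.682 and 0.616 CPM. Pemt, which methylates phosphatidylethanolamine, did not separate (-0.27 ± 0.16). In the methionine cycle 0 of 38 were higher and 1 was lower (2.63% of the list beside 10.0% of all genes), Cbs (-0.57 ± 0.21), and Bhmt, the betaine methyltransferase, overlapped (-0.15 ± 0.19). The log2 fold change of Cbs was -0.31 without REG 2 and -0.72 without REG 3.

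Secreted protein genes stood near or below the share of all genes. At an unadjusted p under 0.05 were 5 of 75 plasma protein genes (6.67%) and 3 of 31 lipoprotein genes (9.68%), beside 10.0% of all genes. Albumin itself stood at 137750.0, 126062 and 128378 CPM in REG and 98454, 103684 and 87535 CPM in hADMSCs-Exo (log2 fold change -0.44 ± 0.20, adjusted p = 0.515), so every treated liver had less of it, short of the threshold. Abca1, which loads cholesterol on HDL, was at 148, 147 and 119 CPM in hADMSCs-Exo and 77.9, 83.3 and 112 CPM in REG (log2 fold change 0.59 ± 0.17, adjusted p = 0.407), and the hepatic lipase Lipc at 104, 102 and 112 CPM in hADMSCs-Exo and 148, 188 and 129 CPM in REG (log2 fold change -0.55 ± 0.16, adjusted p = 0.407). Apoa1 of HDL was a little lower in every treated liver (-0.19 ± 0.16), and Apob overlapped (0.06 ± 0.18). Saa3, an acute phase gene, was at 16.04, 23.8 and 38.2 CPM in hADMSCs-Exo and 9.98, 14.3 and 7.55 CPM in REG (log2 fold change 1.29 ± 0.34, adjusted p = 0.394), with log2 fold changes of 0.91 to 1.57 over single libraries left out and adjusted p from 0.0311 to 1 over the alternatives. Orm2 and Saa1 rested more on 1 liver: Orm2 reached 1929 CPM and Saa1 3844 CPM in hADMSCs-Exo 3, against 256 and 165 CPM in hADMSCs-Exo 2, and the log2 fold change of Saa1 ranged from -0.36 to 3.11 over the alternatives. In bile acid synthesis Cyp7b1, of the alternative pathway, was higher at 36.5, 40.4 and 40.7 CPM in hADMSCs-Exo and 14.8, 29.5 and 25.6 CPM in REG (log2 fold change 0.75 ± 0.24, adjusted p = 0.409), while Cyp7a1, the rate-limiting enzyme of the classical pathway, overlapped at 267, 139 and 356 CPM in hADMSCs-Exo and 306, 283 and 291 CPM in REG.

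Transporters gave a water channel and a bile salt pump on the lower side and several exporters on the higher. Aqp8, an aquaporin of hepatocyte canaliculi and mitochondria, stood at 82.5, 207 and 124 CPM in REG and 48.2, 40.8 and 47.96 CPM in hADMSCs-Exo. The treated livers were tight and the saline ones spread over more than 1 log2 unit, with no overlap (log2 fold change -1.60 ± 0.30, adjusted p = 0.358, with adjusted p from 0.000168 to 1 over the alternatives). Abcb11, the bile salt export pump, was at 306, 389 and 294 CPM in REG and 179.9, 228 and 236 CPM in hADMSCs-Exo (log2 fold change -0.62 ± 0.17, adjusted p = 0.407), and was the only one of 40 ABC transporters and flippases lower at an unadjusted p under 0.05. On the higher side were 8 of the 40, beside 5.34% of all genes. The median of the list was 0.15. Abcg2, a drug and urate exporter, stood at 67.2, 62.1 and 60.9 CPM in hADMSCs-Exo and 37.1, 45.6 and 50.9 CPM in REG (log2 fold change 0.51 ± 0.14, adjusted p = 0.407), and Abcd4, which serves cobalamin release from lysosomes, at 17.5, 19.8 and 19.97 CPM in hADMSCs-Exo and 14.3, 12.8 and 13.2 CPM in REG (log2 fold change 0.51 ± 0.14, adjusted p = 0.407). Abcb4, the phospholipid floppase of the canaliculus, and Abcc2, the bilirubin conjugate exporter, overlapped between groups (0.50 ± 0.20 and 0.48 ± 0.23). With hADMSCs-Exo 2 and REG 2 left out the list's median was 0.06.

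Of 32 organic anion and cation carriers, 4 were higher (Slc22a5, Slc13a3, Slc22a3 and Slc13a5) and 0 lower at an unadjusted p under 0.05. The shares in either direction were 12.5% of these carriers, 5.41% of amino acid carriers, 7.5% of sugar and related carriers and 10.6% of metal genes, near or below the 10.0% of all genes. Slc22a5, the carnitine carrier, stood at 29.2, 28.3 and 29.9 CPM in hADMSCs-Exo and 19.5, 13.1 and 18.5 CPM in REG, clear of REG (log2 fold change 0.77 ± 0.18, adjusted p = 0.358). Slc13a3, which takes up dicarboxylates, was at 38.1, 39.6 and 70.3 CPM in hADMSCs-Exo and 34.7, 19.9 and 19.4 CPM in REG (log2 fold change 1.00 ± 0.31, adjusted p = 0.407). The bile salt uptake carrier Slc10a1 and the statin carrier Slco1b2 did not separate (-0.68 ± 0.38 and 0.08 ± 0.19). Slco1a1 swung from 2.86 to 88.4 CPM within the groups. Among 37 amino acid carriers Slc1a2 was higher and the glutamine carrier Slc38a3 lower, the latter at 2490.4, 2488 and 2693 CPM in REG and 2003, 2081 and 1907 CPM in hADMSCs-Exo (log2 fold change -0.36 ± 0.14, adjusted p = 0.477). Slc16a12 and Slc2a5, carriers of creatine and fructose, were 2 of the 3 in their list of 40, at log2 fold changes of 0.47 ± 0.17 and -0.56 ± 0.20. In metal handling Tfrc, the transferrin receptor, and Slc30a1, a zinc exporter, were among the 4 of 47 higher (1.07 ± 0.37 and 0.54 ± 0.18), while Hamp, which encodes hepcidin, ran from 3.65 to 572 CPM over the 6 livers.

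Growth arrest genes held the signalling gene with the smallest p. Gadd45g, a stress-induced activator of p38 and JNK kinases, stood at 64.03, 37.4 and 64.8 CPM in hADMSCs-Exo and 17.8, 13.8 and 11.8 CPM in REG. The lowest treated liver was above the highest saline one by more than 1 log2 unit (log2 fold change 1.94 ± 0.25, adjusted p = 0.156), with adjusted p from 1.37e-09 to 1 over the alternatives. Its relatives Gadd45a and Gadd45b overlapped (-0.88 ± 0.57 and 0.13 ± 0.35). Of 40 genes of growth arrest and p53, 8 were higher at an unadjusted p under 0.05 (beside 5.34% of all genes) and 1 lower (Cdkn2d), yet the median was only 0.09. Btg2, an antiproliferative p53 target, was at 24.1, 28.4 and 28.5 CPM in hADMSCs-Exo and 13.1, 17.2 and 16.2 CPM in REG (log2 fold change 0.80 ± 0.16, adjusted p = 0.358). Trp53inp1 was highest in hADMSCs-Exo 2, at 41.4, 129.8 and 75.8 CPM in hADMSCs-Exo and 28.4, 38.3 and 33.6 CPM in REG (2.46-fold, adjusted p = 0.407). Mdm2, which degrades p53, separated (0.57 ± 0.20), and Cdkn1a, the cell cycle inhibitor p21, did not, since hADMSCs-Exo 1 lay below REG 1 (1.53 ± 0.54).

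Immediate early genes had a median of 0.34, with 27 of 35 above 0 but 4 higher (Btg2, Cebpb, Fosl2 and Ier5) and 1 lower at an unadjusted p under 0.05, 14.3% of the list beside 10.0% of all genes. The lower one was Junb, an AP-1 subunit, at 52.2, 47.4 and 34.4 CPM in REG and 26.4, 27.6 and 24.99 CPM in hADMSCs-Exo (log2 fold change -0.76 ± 0.17, adjusted p = 0.358). Fos, Jun and Egr1 overlapped (0.28 ± 0.36, 0.85 ± 0.41 and 0.61 ± 0.70). In NF-kB and cytokine signalling 8 of 47 were higher and 1 lower, 19.1% of that list. Its median was 0.23. Without hADMSCs-Exo 2 and REG 2 the medians were 0.06 for this list and 0.21 for the immediate early genes. Cd14, the coreceptor for bacterial lipopolysaccharide, stood at 13.9, 13.7 and 17.9 CPM in hADMSCs-Exo and 10.9, 7.76 and 6.16 CPM in REG (log2 fold change 0.87 ± 0.24, adjusted p = 0.402), and Tnfrsf1a, the main TNF receptor of hepatocytes, at 124, 124 and 104 CPM in REG and 79.8, 74.1 and 85.3 CPM in hADMSCs-Exo (log2 fold change -0.56 ± 0.13, adjusted p = 0.358). Tnf and Il1b themselves were low, at most 6.02 CPM, and overlapped. The interferon list was led by 1 gene, Oas2 (1.13 ± 0.29), and Isg15 and Irf7 were highest in the libraries numbered 1 of both groups, with Irf7 at 362 CPM in hADMSCs-Exo 1 and 289 CPM in REG 1 and at most 120.0 CPM in the rest.

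Insulin and glucagon signalling held 8 of 52 genes higher and 3 lower (Trib3, Grb14 and Akt2). Its share was 21.2% and its median 0.10. Foxo1, the transcription factor that insulin keeps out of the nucleus, stood at 26.99, 41.8 and 35.3 CPM in hADMSCs-Exo and 22.9, 19.9 and 24.3 CPM in REG (log2 fold change 0.63 ± 0.19, adjusted p = 0.407). Trib3, an inhibitor of AKT, was at 14.4, 11.1 and 6.11 CPM in REG and 4.79, 4.21 and 6.19 CPM in hADMSCs-Exo (log2 fold change -1.05 ± 0.32, adjusted p = 0.407), with REG 3 inside the treated range. Ddit4, which restrains mTOR, was high in hADMSCs-Exo 2 and 3 only, at 7.48, 22.8 and 40.6 CPM in hADMSCs-Exo and 9.37, 6.08 and 7.75 CPM in REG (log2 fold change 1.61 ± 0.52, adjusted p = 0.41). The receptors Insr and Gcgr overlapped (0.24 ± 0.14 and 0.02 ± 0.17). Among growth factor receptors and their feedback genes 4 of 56 were higher, the phosphatases Dusp2 and Dusp8, the growth factor Fgf1 and the HGF receptor Met, and 1 lower, Klb, 8.93% of the list beside 10.0% of all genes. Met was tight in the treated livers and spread wider in REG, at 83.5, 84.3 and 83.2 CPM in hADMSCs-Exo and 57.2, 69.7 and 75.1 CPM in REG (log2 fold change 0.31 ± 0.13, adjusted p = 0.49), while Dusp2 and Dusp8 were counted at low levels, at most 3.31 CPM. In BMP and TGF-beta signalling Skil, a repressor of SMAD signalling, stood at 14.7, 16.9 and 16.5 CPM in hADMSCs-Exo and 7.18, 6.61 and 9.14 CPM in REG (log2 fold change 1.07 ± 0.18, adjusted p = 0.353), and Bambi, a decoy receptor, at 6.69, 5.505 and 4.57 CPM in REG and 3.31, 3.096 and 2.63 CPM in hADMSCs-Exo (log2 fold change -0.89 ± 0.24, adjusted p = 0.407), 2 of the 5 genes of 48 at an unadjusted p under 0.05 (10.4% of the list beside 10.0% of all genes), the others being Acvr2b, Gdf10 and Bmp5. Of 36 growth hormone and IGF genes, Cyp7b1 and Elovl3 were higher and Igfbp3 and Igfbp7 lower, 11.1% of the list beside 10.0% of all genes, while Ghr and Igf1 overlapped (0.17 ± 0.21 and 0.21 ± 0.14). Both Cyp7b1 and Elovl3 were lowest in REG 1, and without it their log2 fold changes were 0.51 and 1.71.

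**Figure D5:**
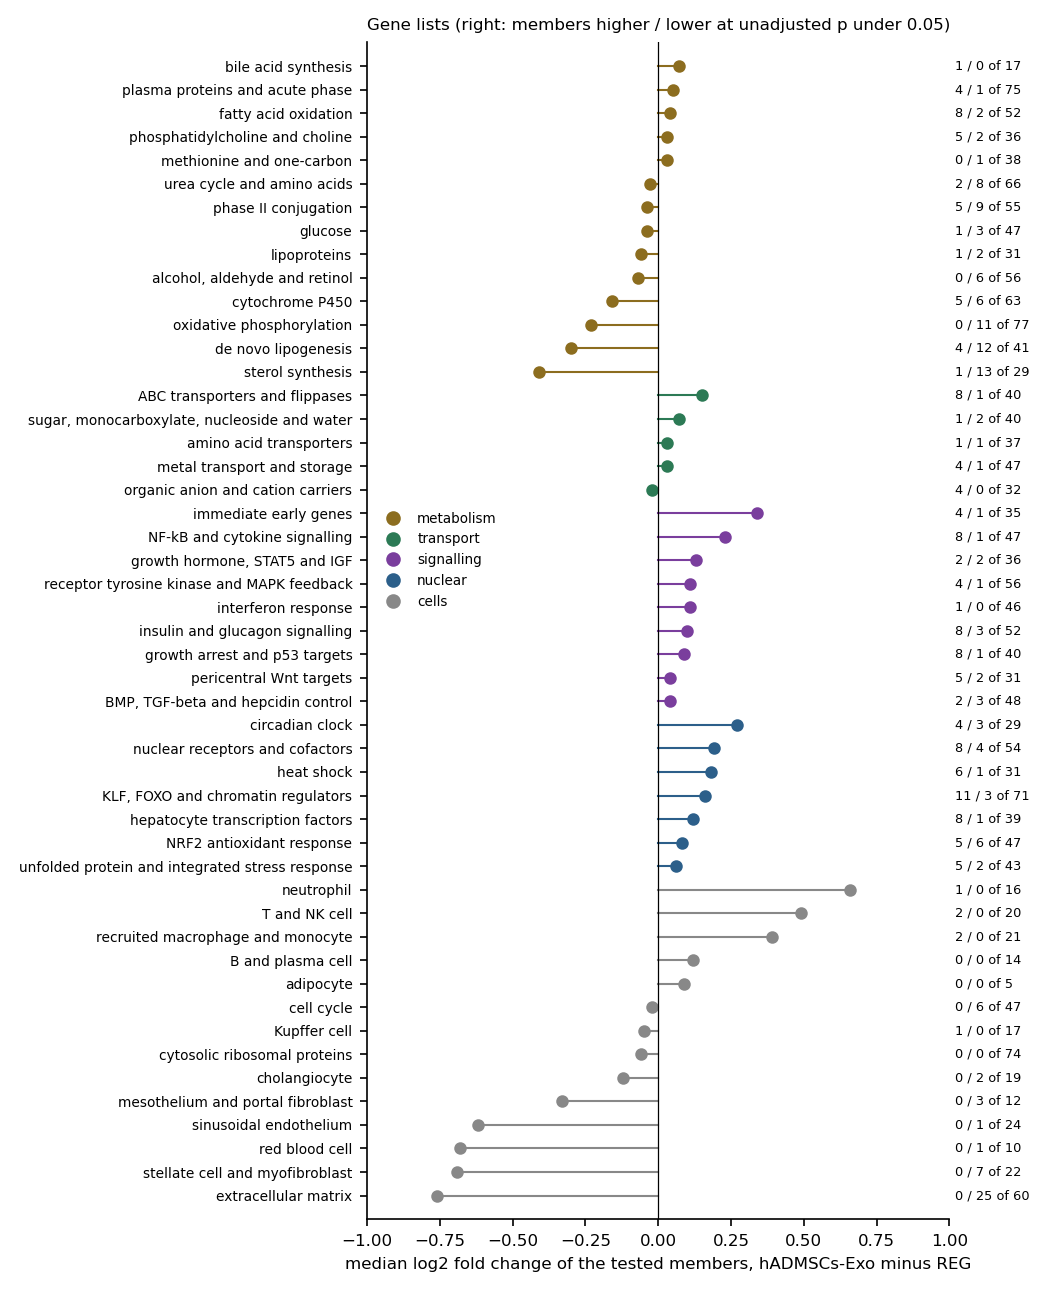
Median log2 fold change of hADMSCs-Exo over REG for the tested members of each gene list with at least 4 tested genes, coloured by theme, with the number of members higher and lower at an unadjusted p under 0.05 at the right. Sterol synthesis (-0.41) and lipogenesis (-0.30) are lowest among the metabolic lists and the clock (0.27) highest among the nuclear ones, while the matrix list (-0.76) is the lowest of all.

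Clock genes lay on both sides. Of 29 tested, 4 were higher (Cry1, Noct, Nfil3 and Arntl) and 3 lower (Dbp, Nr1d1 and Rgs16) at an unadjusted p under 0.05. That is 24.1% of the list beside 10.0% of all genes. Cry1, a repressor of the clock's negative arm, stood at 9.13, 24.7 and 16.8 CPM in hADMSCs-Exo and 4.197, 4.72 and 7.19 CPM in REG. The groups did not overlap, although treated livers differed among themselves by more than 1 log2 unit (log2 fold change 1.65 ± 0.37, adjusted p = 0.358), and the adjusted p ranged from 0.00339 to 1 over the alternatives. Nfil3, a repressor at D-box sites, was at 17.1, 27.7 and 17.9 CPM in hADMSCs-Exo and 9.79, 12.6 and 5.598 CPM in REG (log2 fold change 1.16 ± 0.31, adjusted p = 0.394). Dbp, the activator at the same sites, was at 185, 164 and 134 CPM in REG and 123, 42.8 and 60.8 CPM in hADMSCs-Exo (log2 fold change -1.09 ± 0.35, adjusted p = 0.411). Nr1d1, which encodes REV-ERB-alpha and represses Arntl, stood at 66.6, 50.7 and 24.8 CPM in REG and 31.8, 14.95 and 10.05 CPM in hADMSCs-Exo with hADMSCs-Exo 1 above REG 3 (log2 fold change -1.32 ± 0.47, adjusted p = 0.432). Arntl (BMAL1), the positive arm, was low everywhere, at 1.03, 4.26 and 1.78 CPM in hADMSCs-Exo and 0.365, 1.36 and 0.359 CPM in REG (log2 fold change 1.74 ± 0.69, adjusted p = 0.474). Noct, a rhythmic phosphatase that acts on NADP(H), separated too (log2 fold change 1.09 ± 0.27, adjusted p = 0.38), and Per1, Per2 and Clock overlapped. The time of day at which each liver was taken is not given in the sources used here, and its part in these differences was not tested. Without hADMSCs-Exo 2 and REG 2 the median of the list was 0.08 instead of 0.27.

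Hepatocyte transcription factors leaned upward, with 8 of 39 higher and 1 lower (Nr2f6) at an unadjusted p under 0.05, beside 5.34% and 4.69% of all genes, and a median of 0.12. Cebpb, the C/EBP factor of the acute phase and of regeneration, stood at 115, 76.1 and 97.5 CPM in hADMSCs-Exo and 67.3, 44.4 and 39.4 CPM in REG, clear of REG (log2 fold change 0.93 ± 0.23, adjusted p = 0.38). Hnf4a, the central regulator of hepatocyte identity, was at 597, 744 and 705 CPM in hADMSCs-Exo and 487, 474 and 559 CPM in REG (log2 fold change 0.43 ± 0.15, adjusted p = 0.432). Zbtb20, which represses alpha-fetoprotein, was at 86.3, 89.95 and 76.6 CPM in hADMSCs-Exo and 51.3, 65.1 and 59.9 CPM in REG (log2 fold change 0.52 ± 0.14, adjusted p = 0.394), and Prox1, a corepressor of HNF4A, at 122, 108 and 104 CPM in hADMSCs-Exo and 68.9, 73.7 and 93.8 CPM in REG (log2 fold change 0.50 ± 0.15, adjusted p = 0.407). Cebpa and Foxa2 overlapped between the groups (-0.47 ± 0.24 and 0.14 ± 0.32).

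Nuclear receptors and their cofactors had 8 of 54 higher and 4 lower (Nr3c2, Nr2f6, Nr1d1 and Rxrg), 22.2% of the list beside 10.0% of all genes, with a median of 0.19. Without hADMSCs-Exo 2 and REG 2 this median was 0.06, with 33 higher and 21 lower, and that of the hepatocyte transcription factors 0.07. Nrip1, a corepressor of several receptors, stood at 12.5, 14.1 and 11.8 CPM in hADMSCs-Exo and 8.03, 7.18 and 8.22 CPM in REG (log2 fold change 0.71 ± 0.16, adjusted p = 0.358). Esr1, the estrogen receptor, was at 48.2, 54.6 and 35.04 CPM in hADMSCs-Exo and 32.97, 30.4 and 28.3 CPM in REG (log2 fold change 0.59 ± 0.18, adjusted p = 0.407), and Nr1i2, the drug-sensing receptor PXR, at 88.1, 128 and 131 CPM in hADMSCs-Exo and 76.8, 51.7 and 88.7 CPM in REG with hADMSCs-Exo 1 just inside the REG range (log2 fold change 0.67 ± 0.23, adjusted p = 0.43). Nr3c2, the mineralocorticoid receptor, was lower at 16.8, 15.8 and 13.6 CPM in REG and 11.1, 6.54 and 9.49 CPM in hADMSCs-Exo (log2 fold change -0.77 ± 0.22, adjusted p = 0.407). The bile acid receptor Nr1h4 overlapped (-0.03 ± 0.16), as did the drug receptor CAR (Nr1i3) and the repressor Nr0b2 (0.45 ± 0.31 and 0.66 ± 0.49).

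Chromatin regulators were more often higher than lower, by small amounts. Of 71 genes of the KLF, FOXO and chromatin list, 52 were above 0 and 19 below, 11 were higher at an unadjusted p under 0.05 and 3 lower (Hdac11, Klf1 and Sirt5), and 13 separated the groups upward against 3 downward, beside 7.95% and 7.82% of all genes. Brd2, a reader of acetylated histones, stood at 114, 115 and 93.7 CPM in hADMSCs-Exo and 77.7, 66.4 and 78.6 CPM in REG (log2 fold change 0.54 ± 0.14, adjusted p = 0.382). Chd4, the NuRD remodeller, was at 114, 129.7 and 120.1 CPM in hADMSCs-Exo and 85.04, 80.7 and 94.4 CPM in REG (log2 fold change 0.48 ± 0.12, adjusted p = 0.382), and Kmt2d, an enhancer methyltransferase, at 36.6, 49.7 and 28.5 CPM in hADMSCs-Exo and 16.2, 17.2 and 26.2 CPM in REG (log2 fold change 0.95 ± 0.26, adjusted p = 0.402). These are long genes, with a median exonic length of 7571 bases, and the list's median of 0.16 was 0.11 after subtraction of the median of their length class and 0.08 without hADMSCs-Exo 2 and REG 2, where 41 were above 0 and 30 below. Klf9 and Klf15, which follow glucocorticoids and fasting, overlapped (-0.05 ± 0.20 and 0.01 ± 0.20).

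Stress responses were mixed. Of 31 heat shock genes 6 were higher and 1 lower (Cryab), 22.6% of the list beside 10.0% of all genes, led by Bag3, a cochaperone, at 35.04, 28.04 and 34.4 CPM in hADMSCs-Exo and 20.9, 20.97 and 24.2 CPM in REG (log2 fold change 0.56 ± 0.15, adjusted p = 0.394), and by Hsph1 and Hsp90aa1 (1.13 ± 0.32 and 0.48 ± 0.15). Of 43 genes of the unfolded protein response, Cebpb, Syvn1, Ddit3, Ddit4 and Sesn2 were higher and Trib3 and Sec61b lower. These were 16.3% of that list. Syvn1, the ligase that degrades misfolded proteins of the endoplasmic reticulum, stood at 46.9, 58.2 and 65.5 CPM in hADMSCs-Exo and 26.2, 36.9 and 39.4 CPM in REG (log2 fold change 0.73 ± 0.19, adjusted p = 0.394), while the chaperone Hspa5 and the factors Atf4 and Xbp1 overlapped. The NRF2 list of 47 was split, with Gstp1, Mafg, Osgin1, Gclc and Abcc3 higher and 6 lower. Its share was 23.4%. Gclc, which limits glutathione synthesis, stood at 243, 196 and 128 CPM in hADMSCs-Exo and 114, 116 and 116 CPM in REG (log2 fold change 0.71 ± 0.22, adjusted p = 0.407). The sentinel targets Nqo1 and Hmox1 overlapped (0.55 ± 0.41 and 0.43 ± 0.38).

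Genes of other cell types differed beside those of hepatocytes. Of 60 matrix genes 25 were lower and 0 higher at an unadjusted p under 0.05, with a median of -0.76, and of 22 stellate cell and myofibroblast genes 7 were lower and 0 higher, with a median of -0.69, or -1.05 without hADMSCs-Exo 2 and REG 2. Col3a1 stood at 58.7, 81.2 and 43.9 CPM in REG and 10.1, 26.9 and 18.5 CPM in hADMSCs-Exo (log2 fold change -1.73 ± 0.36, adjusted p = 0.358), and Acta2, the smooth muscle actin of activated stellate cells, at 7.24, 10.6 and 3.903 CPM in REG and 0.342, 1.23 and 2.02 CPM in hADMSCs-Exo (log2 fold change -2.60 ± 0.58, adjusted p = 0.358). In bulk liver, fewer cells of a type and less RNA per cell cannot be told apart. The summed CPM of the 22 genes ranged from 115.5 to 243 in hADMSCs-Exo and from 183 to 328 in REG, so these sums overlapped. Those of the extracellular matrix list did too, at 5244, 6003 and 7343 in hADMSCs-Exo and 7175, 6520.3 and 6437 in REG, with hADMSCs-Exo 3 highest of all. Such sums rest mostly on the most abundant members. Averaged over genes, deviations from the mean of the 6 libraries did not overlap in either list, though narrowly for the matrix. For matrix genes they were -0.9, 0.06 and -0.3 in hADMSCs-Exo and 0.58, 0.5 and 0.07 in REG. For the 22 genes they were -1.05, -0.04 and -0.29 in hADMSCs-Exo and 0.67, 0.64 and 0.08 in REG. All 16 tested neutrophil genes had log2 fold changes above 0, with 1 of them, Mmp8, at an unadjusted p under 0.05, and their median of 0.66 became 1.91 without REG 1 and 0.28 without REG 3. Macrophage, T and NK cell lists had medians of 0.39 and 0.49 with 2 genes higher in each, Itgam and Mmp12 in the first and Cd8a and Ccl5 in the second, 9.52% and 10.0% of the lists beside 10.0% of all genes. In both lists REG 1 lay among the treated livers, with a mean deviation of 0.35 for macrophage genes and 0.30 for T and NK cell genes. The medians ranged from 0.22 without REG 3 to 0.68 without REG 1 in the first and from 0.28 to 0.76 in the second. Sinusoidal endothelial genes had a median of -0.62, with 22 of 24 below 0 and 1, Vwf, at an unadjusted p under 0.05, and this became -1.49 without hADMSCs-Exo 2 and -0.12 without REG 1. Of 12 mesothelial and portal fibroblast genes Dpt, Eln and Col15a1 were lower, of 10 red blood cell genes Klf1 was lower, of 17 Kupffer cell genes Cd163 was higher, and of 14 B and plasma cell genes 0 were at an unadjusted p under 0.05. Defining genes of fat and acinar pancreas were at or near 0, with 0 counts in all 6 libraries for Plin1, Lep, Cpa1, Prss1 and Amy2a5 and at most 2 for Adipoq. A 0 in this table need not mean absence, since Mt2, a metallothionein that liver expresses, had 0 counts in 5 libraries and 1 in the other. The part of these cells in the hepatocyte differences was not tested.

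Several of the most separated genes belong to none of the lists. Lars2, the mitochondrial leucyl-tRNA synthetase, stood at 607, 753 and 767 CPM in hADMSCs-Exo and 269, 243 and 311 CPM in REG, the gene with the second smallest p (log2 fold change 1.37 ± 0.16, adjusted p = 0.131). Npr2, the receptor for C-type natriuretic peptide, was at 29.05, 25.4 and 24.6 CPM in hADMSCs-Exo and 9.61, 12.5 and 14.02 CPM in REG (log2 fold change 1.12 ± 0.18, adjusted p = 0.319), and Nedd4l, a ubiquitin ligase that acts on ion channels and SMAD proteins, at 41.8, 41.7 and 27.8 CPM in hADMSCs-Exo and 20.6, 16.3 and 16.5 CPM in REG (log2 fold change 1.06 ± 0.20, adjusted p = 0.358). Tnfrsf12a, the TWEAK receptor Fn14, was at 9.76, 8.29 and 11.7 CPM in hADMSCs-Exo and 4.501, 3.98 and 4.62 CPM in REG (log2 fold change 1.18 ± 0.21, adjusted p = 0.353). Also higher were the host gene of small nucleolar RNAs Snhg11 (1.55 ± 0.22), the adhesion gene Tenm3 (1.43 ± 0.25) and Mup19 (3.48 ± 0.68), a major urinary protein gene all of whose 50-base windows occur in other genes. On the lower side Pdzk1ip1, a partner of the scaffold PDZK1, stood at 13.02, 17.7 and 10.7 CPM in REG and 5.65, 4.498 and 6.06 CPM in hADMSCs-Exo (log2 fold change -1.35 ± 0.24, adjusted p = 0.353), and Thnsl1, a threonine synthase relative, at 4.32, 6.71 and 5.598 CPM in REG and 1.77, 2.45 and 2.45 CPM in hADMSCs-Exo (log2 fold change -1.32 ± 0.27, adjusted p = 0.358). Raet1d, a ligand of the NK receptor NKG2D, was at 12.96, 8.91 and 16.2 CPM in REG and 4.62, 2.69 and 4.84 CPM in hADMSCs-Exo, but 55.8% of its windows occur in Raet1e. None of these passed the adjusted threshold by edgeR's quasi-likelihood test, although their groups did not overlap.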

How the data were processed

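The authors extracted liver RNA with Trizol, made NEBNext Ultra libraries, sequenced them on a NovaSeq, and deposited raw counts per gene beside FPKM for 9 libraries. The submitters' processing notes name cutadapt 1.15, HISAT2 2.0.5, HTSeq 0.9.1 and DESeq 1.30.0 with GRCm38. The use of strand is not given in the sources used here, so overlapping and near-identical genes have uncertain counts. The deposited FPKM equals the counts scaled by length and total within a relative difference of 9.19e-07 and was used for that check only. The table holds 21936 genes. Counts of the 6 libraries compared were analysed in R 4.3.3 with edgeR 4.0.16 (quasi-likelihood test, two-sided, TMM, filter on low counts, 12337 genes left, Benjamini-Hochberg adjustment over all of them), calling genes with log2 fold changes of 1 or more in size at an adjusted p under 0.05. Replicates differed by more than sampling noise (chi-square per gene of at least 27.0). In this measure, taken without TMM scaling, abundant genes weigh most, so it does not cover genes near the floor. The part of depth in the precision was not tested.

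The groups, the 50 gene lists (1949 of 1964 genes matched), the tests and the alternatives were chosen with earlier results of these data known. Named are genes past both thresholds, the 12 higher and 12 lower genes with the smallest p among those with log2 fold changes of 1 or more in size and groups that do not overlap, up to 3 genes of each list with the smallest p, and fixed key genes of each list. Promoters came from RefSeq (GRCm38.p6). Windows of 50 bases were compared with GENCODE M21 transcripts, and exonic lengths came from the deposited table. Alternatives were RLE scaling, DESeq2 1.42.0, limma 3.58.1 voom with quality weights, edgeR's exact test, other count filters, a joint fit of all 9 libraries, blocking on replicate number, thinning to the smallest total, no fold change limit and each library left out. Leaving out both replicates numbered 2, and subtracting the median of genes of like length, were alternatives chosen after seeing the data. Python 3.11.15, pandas 2.3.3 and matplotlib 3.10.9 were used. Some members of the lists are counted but not reported here by name.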

Additional observations from a re-analysis of the deposited data

How the results depend on the processing

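The count of genes past both thresholds, 1 by edgeR's quasi-likelihood test, was 68 with DESeq2, 64 with edgeR's exact test, 4 without a filter on low counts, 3 with voom and quality weights, and 0 with all 9 libraries in one fit, where 136 genes lay within the unadjusted p of 0.05 and the fold change limit. It lay between 0 and 1 with 1 library left out, at 0 without hADMSCs-Exo 3 and without REG 2. The count at the unadjusted p with the fold change limit, 266, was 172 with at least 10 counts in every library, 136 with all 9 libraries, 1237 with no limit on fold change, and between 230.0 and 443 with 1 library left out. Genes whose groups do not overlap numbered 1946, and between 2522 and 3718 with 1 library left out, where fewer libraries have to separate. Cyp2c55 kept its direction in all 15 alternatives and lost the call in 3: with all 9 libraries (log2 fold change -2.87, adjusted p = 1.0), and without hADMSCs-Exo 3 or REG 2 (-2.84 in each, adjusted p = 0.0815 and 0.0584), while over all single libraries left out it ranged from -3.05 to -2.74. Of the other named genes, 82 values passed the adjusted threshold under an alternative, most with DESeq2 or the exact test, 4312 kept their side of it, and the cause was not tested. Of 750 list medians under the alternatives 24 moved by more than the spread between replicates.

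The groups share replicate numbers, but deviations of same-numbered libraries from their group means correlated by 0.144, -0.00713 and 0.0275 across genes, so the numbers were not taken as pairs. With the replicate number as a block, 1 gene passed both thresholds, 285 passed the unadjusted ones, and Cyp2c55 had a log2 fold change of -2.88 with an adjusted p of 0.0202, so the block changed no call.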

Other observations

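Several genes with a known sex bias in mouse liver, which follows the pulses of growth hormone, had their extreme value in REG 1, and some of them their next in hADMSCs-Exo 1. They were chosen after their values had been seen. Cyp2b9 and Cyp2a4, which are higher in females, stood at 253 and 128 CPM in REG 1, against 28.1 to 69.6 and 3.51 to 15.8 CPM in the other 5. Cyp2b13, another such gene, had 303 counts in REG 1 and at most 28 in the rest. In Cyp2b9, Cyp2b13 and Sult3a1 hADMSCs-Exo 1 was second highest, and the female-biased Cux2 stood at 55.1 CPM there beside 80.1 CPM in REG 1. The male-biased Hsd3b5 was lowest in hADMSCs-Exo 1, at 0.342 CPM against 0.487 CPM in REG 1. The male-biased Cyp4a12a and Mup20 were lowest in REG 1, at 4.74 and 93.7 CPM, against at least 54.3 and 627 CPM elsewhere. Slco1a1, also male-biased, was low in both libraries numbered 1, at 3.65 CPM in hADMSCs-Exo 1 and 2.86 CPM in REG 1, and at least 40.4 CPM in the others. The Y-linked genes Ddx3y, Kdm5d, Uty and Eif2s3y were counted in all 6 libraries, with at least 142 counts each. Without REG 1 the log2 fold change of Cyp2a4 by edgeR went from -2.16 to 0.18, while that of Elovl3 went from 2.23 to 1.71. Elovl3 and Cyp7b1 were lowest in REG 1, at 0.122 and 14.8 CPM. The cause was not tested.

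Cell cycle genes had a median log2 fold change of -0.02, with 23 above 0 and 24 below. At an unadjusted p under 0.05, 0 of 47 were higher and 6 lower, beside 5.34% and 4.69% of all genes. These included Gmnn, the inhibitor of replication licensing, at 10.9, 13.1 and 11.7 CPM in REG and 7.42, 6.31 and 8.58 CPM in hADMSCs-Exo (log2 fold change -0.68 ± 0.18, adjusted p = 0.394), and the helicase subunit Mcm6 at 11.01, 7.13 and 9.81 CPM in REG and 5.82, 3.797 and 6.19 CPM in hADMSCs-Exo (log2 fold change -0.82 ± 0.26, adjusted p = 0.409). The proliferation markers Mki67 and Top2a overlapped between the groups (0.24 ± 0.35 and 0.12 ± 0.32). Of 19 cholangiocyte genes Sox9 and Muc1 were lower at an unadjusted p under 0.05, 10.5% of the list beside 10.0% of all genes, and the bile duct keratins Krt7 and Krt19 overlapped (0.25 ± 0.40 and -0.46 ± 0.41). The haemoglobin gene Hbb-bs was highest in REG 1, at 496, 221 and 61.7 CPM in REG and 46.7, 125 and 269 CPM in hADMSCs-Exo.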
